A study of Homo sapiens with 4 samples.

Results

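The Notch pathway was followed through 10 of its genes, taken by name from the 18665 gene symbols of the array: 3 receptors (NOTCH1, NOTCH2 and NOTCH3), 3 ligands (JAG1, JAG2 and DLL1) and 4 target genes (HES1, HES4, HEY1 and HEYL). The genes carry 16 probes, and every one of them is accounted for here. CP70sps cells, which the labels describe as ovarian tumor-initiating cells obtained from the Cp70 ovarian cancer line by exclusion of a Hoechst dye, were kept on low-attachment plates without serum, in DMEM/F12 to which insulin, EGF (20 ng/ml), bFGF (10 ng/ml) and BSA (0.4%) had been added. The labels give 3 µM niclosamide, an anthelmintic that uncouples mitochondrial respiration, for every group, and the groups differ in the time of exposure, at 0, 2, 4 and 6 h. There was 1 Illumina bead array per time, 4 in all, so no difference between times has a replicate check, the number of arrays limits every value, and the only untreated reference was the 0 h array, with no later untreated sample. The comparisons ask how transcripts of this signalling route stood after each time of exposure.

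Notch receptors are transmembrane proteins that are bound by Jagged or Delta-like ligands on a touching cell. Binding exposes the receptor to cleavage by an ADAM protease and then by gamma-secretase, and the freed intracellular domain enters the nucleus, joins the DNA-binding protein RBPJ and a Mastermind co-activator, and switches on target genes, among them the HES and HEY repressors. In ovarian carcinoma the pathway is known for NOTCH3, which is amplified or highly expressed in part of the serous tumours, and for its link to self-renewal of sphere-forming cells.

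Some facts of the whole series bear on all values. Between 28.3% and 29.6% of the 48803 probes were detected on each array, meaning a detection p under 0.01 against the negative controls. The 0 h array stood apart from the others: the robust spread of the log2 differences over all detected probes was 0.379 for 2 h against 0 h, 0.328 for 4 h and 0.409 for 6 h, whereas it was 0.271 for 4 h against 2 h, 0.217 for 6 h against 2 h and 0.235 for 6 h against 4 h. Values for 6 h against 2 h, which leave out the 0 h array, are therefore given for the main results. In a bulk array, fewer cells of a type and less RNA per cell cannot be told apart. Of 10 epithelial and ovarian carcinoma markers, KRT8, KRT18, KRT19 and EPCAM (4 in all) were detected on at least 1 array, while PAX8, WT1, MUC16, KRT7, CDH1 and CLDN4 were on none. The dye efflux transporters ABCG2 and ABCB1 were not detected, and neither was any of 7 endothelial markers. Of 7 leukocyte markers 1, CD68, was detected. Of 7 fibroblast markers 5 were detected, with a summed level of 7710, 9450, 8220 and 7530 intensity units at 0, 2, 4 and 6 h. The sum takes the brightest probe of each gene. That of COL1A2 had log2 levels of 11.78, 12.28, 11.66 and 11.76, while its other probe fell, at 12.00, 11.71, 11.65 and 11.08. The part of these markers in the results was not tested.

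Of the 16 probes, 10 were detected on all 4 arrays and 6 on none, with none in between. The detected probes belong to 7 genes, NOTCH1, NOTCH2, NOTCH3, JAG2, HES4, HEY1 and HEYL. The single probes of JAG1, DLL1 and HES1 were not detected on any array, nor were 2 of 4 NOTCH2 probes and 1 of 3 JAG2 probes, with detection p from 0.0171 to 0.91. For HES1, the best-known target of the pathway, the non-normalized intensity was 60.0, 60.0, 56.8 and 59.7 at 0, 2, 4 and 6 h, where the lowest detected intensity of any probe was 107 to 121. JAG1, a ligand, read 71.5, 59.2, 68.0 and 65.3, and the ligand DLL1 read 65.7, 65.6, 65.8 and 66.3. No direction can be given for these genes.

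**Figure D1:**
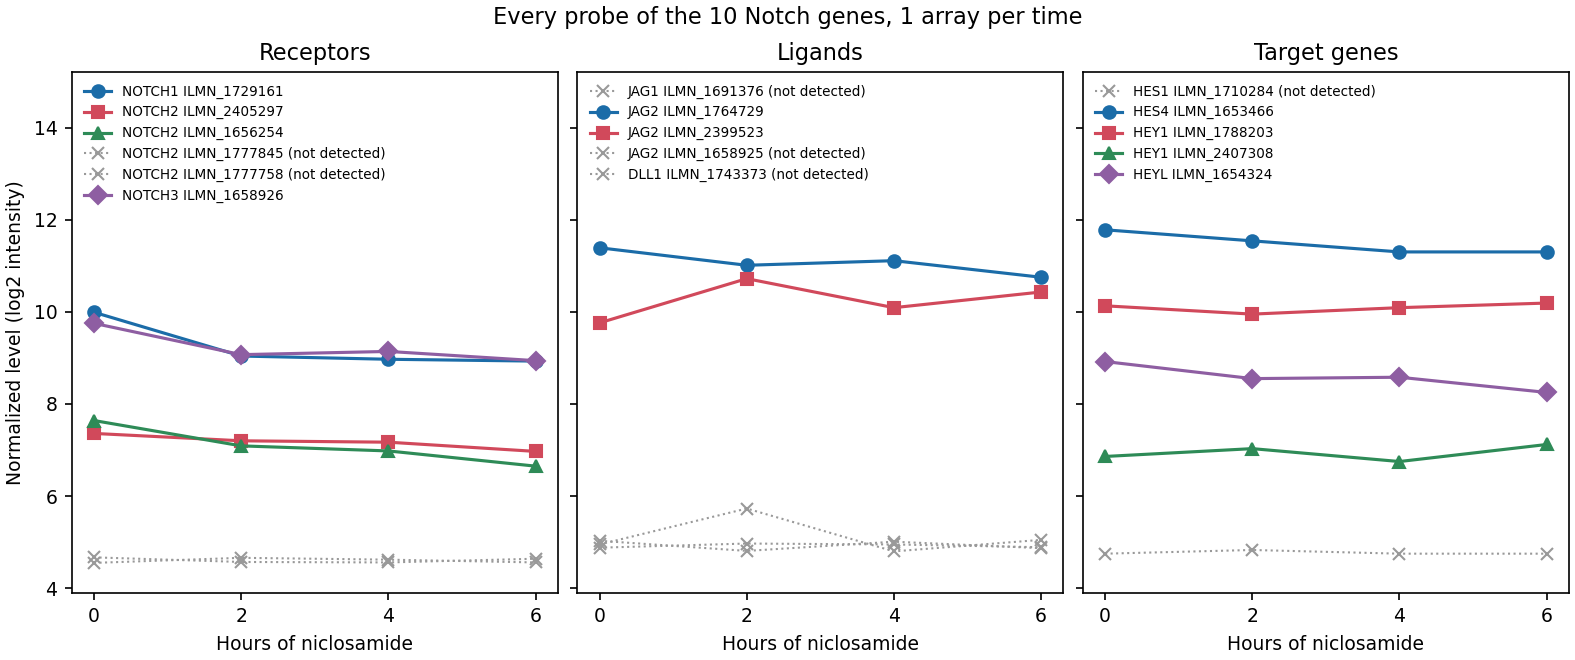
Normalized level (log2 intensity) of all 16 probes against hours of niclosamide, with receptors, ligands and target genes in separate panels and 1 point per array. Coloured lines are the 10 detected probes and grey dotted lines the 6 not detected on any array; NOTCH1 goes from 9.99 to 9.04 between 0 and 2 h and then stays near 9, and levels of different probes are not comparable.

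All 3 receptors read lower at each later time than at 0 h on every detected probe, by up to 2.09 times, although scaling each array to one median put 1 NOTCH2 probe at a log2 difference of 0.00 at 4 h. NOTCH1, the founding receptor of the family, read 9.99, 9.04, 8.97 and 8.93 on the normalized log2 intensity scale at 0, 2, 4 and 6 h on its only probe (ILMN_1729161). The 0 h array was thus alone at a high level, and the later arrays lay within 0.11 of each other. It was lower by 1.93 times after 2 h, 2.03 times after 4 h and 2.09 times after 6 h. In the non-normalized table the same probe gave 1011, 557, 573 and 543 intensity units, and in the authors' processed values 1058, 569, 543 and 529. At 6 h, 1.22% of all probes detected on both arrays had a difference as low or lower. Against 2 h, the 6 h value differed by -0.11, a value that 29.9% of probes matched or undercut.

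NOTCH3, the receptor most often discussed in ovarian cancer, followed the same course on its single probe (ILMN_1658926). Its normalized log2 levels were 9.75, 9.07, 9.14 and 8.94 at 0, 2, 4 and 6 h. Again only the 0 h array was high. The log2 differences from 0 h were -0.68, -0.61 and -0.81, or 1.60, 1.52 and 1.75 times lower (at 4 h under 1.5-fold in all 4 other ways of making the values, at -0.44 to -0.58), and the difference between 6 h and 2 h was -0.13.

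NOTCH2, the other receptor, has 2 probes that were detected, both tied to the same transcript record in the probe table. On the first of them (ILMN_1656254) the log2 levels were 7.64, 7.09, 6.98 and 6.65, so each array was lower than the one before it. The second (ILMN_2405297) read 7.36, 7.20, 7.17 and 6.97, in the same order of times. Scaling each array to one median put its differences from 0 h at -0.04, 0.00 and -0.24, where that order did not hold. At 6 h the log2 differences from 0 h were -0.99 and -0.39, or 1.99 and 1.31 times lower, and 1.77% and 17.7% of all probes were as low or lower. The -0.99 was the largest decrease over 5 ways of making the values, which gave down to -0.76, the value in the authors' processed values. This probe read 147 intensity units at 6 h, where the lowest detected intensity was 121. Without the 0 h array, 6 h against 2 h, the 2 probes gave -0.44 and -0.22. The first value lies in the lowest 3.44% of probes. The human genome also holds partial, near-identical copies of this gene, such as NOTCH2NLA, NOTCH2NLB and NOTCH2NLC, and which of them a probe also reads was not tested.

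The ligand JAG2, a Jagged-type partner of these receptors, was measured by 2 detected probes that went in opposite directions from 0 h. The probe tied to the transcript record NM_002226 (ILMN_1764729) read 11.39, 11.01, 11.11 and 10.75 on the log2 scale at 0, 2, 4 and 6 h. It was highest at 0 h and lowest at 6 h, with differences of -0.39, -0.28 and -0.64. The probe tied to NM_145159 (ILMN_2399523) read 9.76, 10.72, 10.09 and 10.43. It was lowest at 0 h and highest at 2 h, with differences of 0.96, 0.33 and 0.66, or 1.94, 1.26 and 1.58 times higher. The remaining JAG2 probe (ILMN_1658925), also tied to NM_002226, was not detected, with a detection p of 0.0171 at 2 h as its lowest. That value would pass the alternative cutoff of 0.05. The probe read 68.4, 92.3, 59.4 and 72.3 intensity units, where the lowest detected intensity at 2 h was 112. The 2 detected probes therefore give no single direction for JAG2 against 0 h. From 2 h to 6 h they read alike, at -0.25 and -0.30, but not by way of 4 h: from 2 h to 4 h they read 0.11 and -0.63, and from 4 h to 6 h -0.36 and 0.33.

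That the JAG2 probes differ was known when the genes were chosen, so the following describes the size of the gap and is no test. It was set beside the 1710 genes that had exactly 2 probes detected throughout. The gap between the JAG2 probes was 1.34, 0.61 and 1.30 log2 units after 2, 4 and 6 h, where the median gap of these genes was 0.30, 0.21 and 0.28. Gaps as large were seen in 3.04%, 10.9% and 2.98% of the genes. At 6 h JAG2 was 1 of 20 genes (1.17%) with one probe at least 1.5-fold higher and the other at least 1.5-fold lower. For 6 h against 2 h its gap was 0.04, and 81.5% of the genes had a gap as large. Probes of opposite sign were common in general, in 39.1% of the genes for 6 h against 0 h and in 28.5% for 6 h against 2 h. The NOTCH2 pair had a gap of 0.60 at 6 h against 0 h, matched or passed by 21.4% of the genes, and the HEY1 pair a gap of 0.19, matched or passed by 62.9%. Probe sequences were not used here, so which exons each JAG2 probe reads was not tested.

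**Figure D2:**
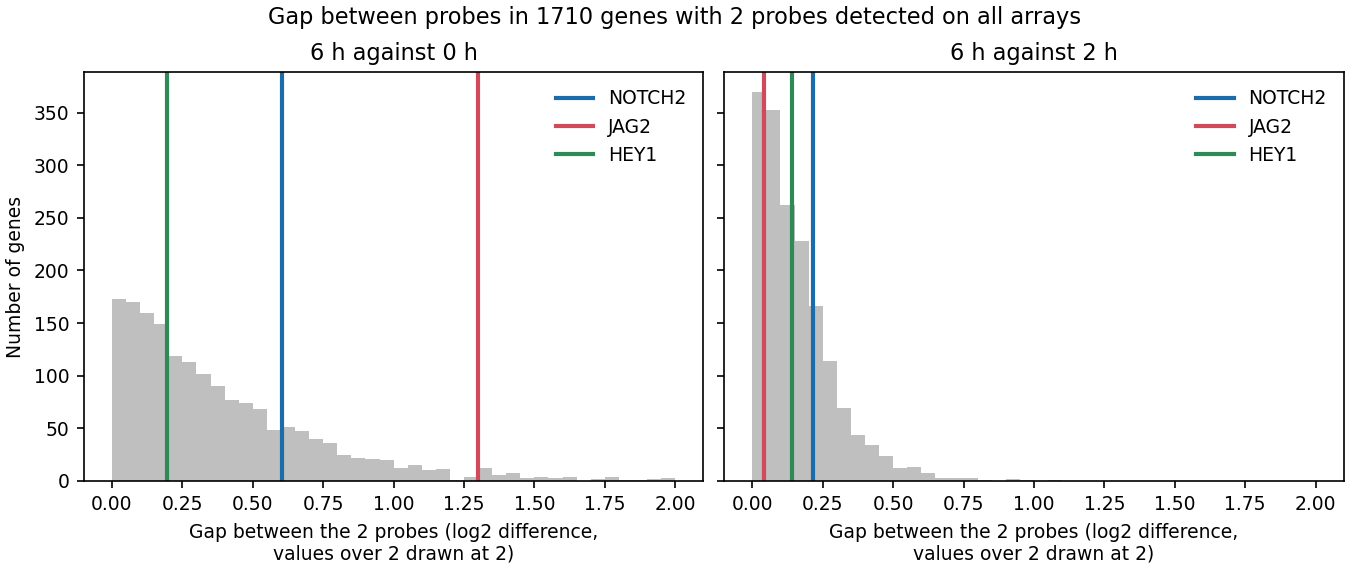
Number of genes (vertical axis) by the gap between their 2 probes in log2 difference (horizontal axis), for 6 h against 0 h on the left and 6 h against 2 h on the right, over 1710 genes. Coloured lines mark NOTCH2, JAG2 and HEY1; the JAG2 gap is 1.30 on the left and 0.04 on the right.

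The target genes did not share one course. HES4, a repressor of the hairy and enhancer of split family, read 11.78, 11.54, 11.30 and 11.30 at 0, 2, 4 and 6 h on the log2 scale. It was highest at 0 h, and its differences of -0.24, -0.48 and -0.48 stayed under 1.5-fold, with -0.24 for 6 h against 2 h. HEYL, a related repressor, read 8.92, 8.55, 8.58 and 8.25. Its differences from 0 h were -0.37, -0.34 and -0.66, so it was 1.59 times lower at 6 h, though under 1.5-fold (-0.53) when each array was scaled to one median, and 6 h against 2 h gave -0.29.

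HEY1, a repressor of the same family, stayed within 1.5-fold at all times. Its first probe (ILMN_1788203) read 10.13, 9.95, 10.09 and 10.19 on the log2 scale at 0, 2, 4 and 6 h. Its second probe (ILMN_2407308) read 6.86, 7.03, 6.75 and 7.12. The differences at 6 h were 0.07 and 0.26, and those for 6 h against 2 h were 0.24 and 0.10. The order of the times differed between the probes.

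Target genes of this pathway are defined by RBPJ, which binds DNA at sites with the core TGGGAA, best where the core is preceded by G (GTGGGAA). The promoters of the targets HES1, HES4 and HEYL are shown for this reason, from RefSeq on GRCh38.p14, as the 250 bases before the gene start, 5′ to 3′ on the strand of the gene, with TGGGAA on either strand in capitals. They lie at chr3:194135898-194136147 on the plus strand for HES1, at chr1:1000098-1000347 on the minus strand for HES4 and at chr1:39639644-39639893 on the minus strand for HEYL.
HES1: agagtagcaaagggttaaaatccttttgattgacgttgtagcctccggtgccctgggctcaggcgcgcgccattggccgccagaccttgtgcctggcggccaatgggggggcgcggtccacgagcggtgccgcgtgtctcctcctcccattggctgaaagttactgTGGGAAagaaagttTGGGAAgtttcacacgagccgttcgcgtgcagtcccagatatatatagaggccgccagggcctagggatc
HES4: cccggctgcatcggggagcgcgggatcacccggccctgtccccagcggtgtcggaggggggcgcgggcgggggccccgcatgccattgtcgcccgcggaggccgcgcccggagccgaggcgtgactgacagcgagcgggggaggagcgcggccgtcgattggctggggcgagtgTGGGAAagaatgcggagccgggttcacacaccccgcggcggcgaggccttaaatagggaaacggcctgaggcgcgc
HEYL: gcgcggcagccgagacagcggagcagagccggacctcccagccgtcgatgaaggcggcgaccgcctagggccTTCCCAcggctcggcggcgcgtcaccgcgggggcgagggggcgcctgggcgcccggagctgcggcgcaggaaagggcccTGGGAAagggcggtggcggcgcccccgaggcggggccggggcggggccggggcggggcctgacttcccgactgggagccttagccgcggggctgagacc
The longer motif GTGGGAA, searched on both strands, stands in each of these 3 windows once. Its base farthest from the gene start lies 85 bases before that start in HES1 and 77 in HES4. In HEYL, where the motif is on the opposite strand, that base lies 178 bases before the start. The motif overlaps TGGGAA in each case, and HES1 and HEYL hold a further TGGGAA. The longest run shared by the HES1 and HES4 windows, tgtgggaaagaa (12 bases), contains the motif. Among all 35116 promoters of the RefSeq table, 5.43% hold GTGGGAA and 20.8% hold TGGGAA in the same 250 bases. Promoters were matched for 8 of the 10 genes, the others being DLL1 and HEY1, and the 5 windows of receptors and ligands hold neither motif. A match is a description of the letters, and binding was not measured. Of these 3 genes, HES1 was not detected, HES4 was under 1.5-fold lower and HEYL was 1.59 times lower at 6 h. The HEYL difference was under 1.5-fold when each array was scaled to one median. Whether the motif bears on these levels was not tested.

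The 10 detected probes belong to 7 genes, chosen with earlier results of these data known, so counts over them describe and are no test. At 6 h, 5 of the 10 were at least 1.5-fold lower than at 0 h, against 9.1% of the 13312 probes detected on both arrays. The 5 were those of NOTCH1, NOTCH3 and HEYL and 1 each of NOTCH2 and JAG2. Scaling each array to one median left 4 of them, without HEYL, and 793 of all probes were then lower, in place of 1211. The other JAG2 probe was the 1 at least 1.5-fold higher, also against a background of 9.1%. At 2 h, 2 probes were lower (NOTCH1 and NOTCH3), where 7.38% of all probes were, and 1 was higher (JAG2), where 7.67% were. At 4 h, 3 were lower (NOTCH1, NOTCH2 and NOTCH3), where 4.65% of all probes were, and 0 were higher, where 3.91% were. In all 4 other ways of making the values, the authors' processed values among them, NOTCH1 alone was at least 1.5-fold lower at 4 h. Lower calls over all probes at 4 h were then 278 to 456, in place of 635. At a fold of 2, NOTCH1 alone was past the threshold downward, at 4 h (0.381% of all probes) and at 6 h (1.68%), and 0 were past it downward at 2 h (1.15%). The call at 4 h (log2 difference -1.02) was lost in all 4 other ways of making the values, at -0.97 to -0.85. Upward, 0 passed a fold of 2 at 2 h (1.37%), at 4 h (0.242%) or at 6 h (1.76%). The median log2 difference of the 10 probes was -0.31, -0.31 and -0.56 after 2, 4 and 6 h, while that of all probes was -0.01, 0.00 and -0.01.

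These counts share the 0 h array. Without it, for 6 h against 2 h, 0 of the 10 probes were at least 1.5-fold lower and 0 higher, where 1.42% and 1.57% of all probes were (0.169% and 0.147% at a fold of 2), and the median was -0.23 against 0.00 for all probes. Of the 10 probes, 8 were below 0 in that comparison, as were 50.2% of all probes. For 4 h against 2 h, 1 probe was lower (JAG2, ILMN_2399523), where 2.92% of all probes were, and 0 higher (2.02%), and for 6 h against 4 h 0 were lower (1.09%) and 0 higher (1.93%). These 2 pairs were added after the values were seen. Over the 4 arrays, 7 probes were highest at 0 h, where 34.7% of all probes detected throughout were, and 6 were both highest at 0 h and lowest at 6 h, where 15.1% were. The 6 are NOTCH1, both NOTCH2 probes, NOTCH3, 1 JAG2 probe and HEYL. NOTCH1, NOTCH3, HES4 and HEYL have 1 detected probe each, so no second probe checks their values.

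**Figure D3:**
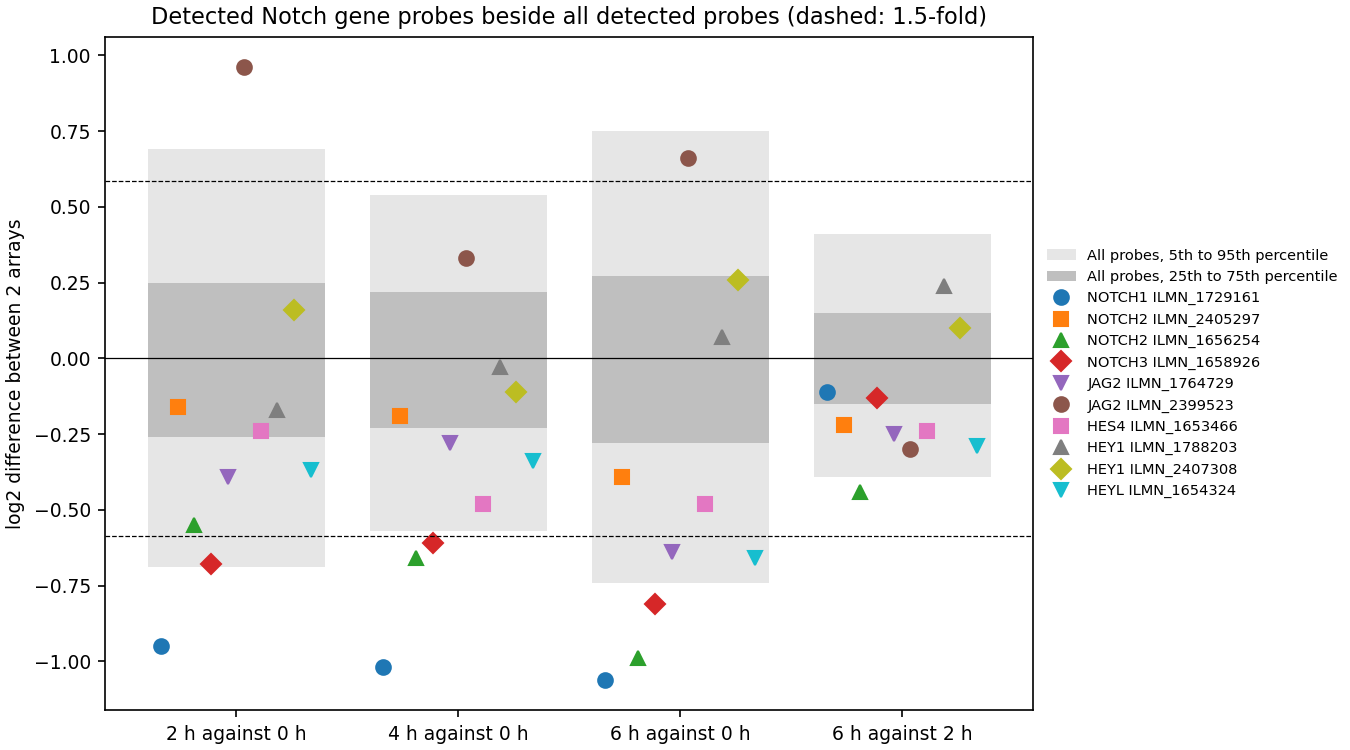
log2 difference between 2 arrays (vertical axis) for the 10 detected probes in each of 4 comparisons, beside the range of all detected probes (dark grey, 25th to 75th percentile; light grey, 5th to 95th). Dashed lines mark 1.5-fold; NOTCH1 lies near -1 in the 3 comparisons with 0 h and at -0.11 for 6 h against 2 h.

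With 1 array per time, a straight line over the hours was the test chosen. Of the 10 probes, 7 had a falling and 3 a rising slope, and 0 passed at a limma adjusted p under 0.05 over 14793 probes, of which 0.0473% rose and 0.00676% fell. The steepest slopes, in log2 units an hour, were those of NOTCH1 at -0.16 (SE 0.0512, with a limma adjusted p of 0.246) and of the first NOTCH2 probe at -0.15 (SE 0.0442, with a limma adjusted p of 0.233). Without adjustment, 6 probes had a falling slope with a limma p under 0.05, where 6.81% of all probes did. The genes were chosen with earlier results of these data known, so that count is no test of the set. In this fit a step between 0 and 2 h, such as that of NOTCH1, enters the slope in part. Its departure from a straight line counts as error. Without the 2 h array 7 of the probes passed, with 1715 rising and 1605 falling over all probes and 1 residual degree of freedom, and without the 0 h, 4 h or 6 h array 0 passed.

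The patterns nearest to NOTCH1, by Euclidean distance over its 3 log2 differences from 0 h, were those of TPCN2 (distance 0.0332), LRRC3DN (0.0604) and 1 probe of ERBB3 (0.0948), out of 11372 other named probes detected on all arrays. A second ERBB3 probe read 0.08, -0.07 and 0.28 at 2, 4 and 6 h, where the near one read -1.01, -0.95 and -1.05. In all, 18 probes lay within 0.2 of NOTCH1. The same search for HES1 was not made because it was not detected.

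The wider pathway was read from 75 further genes, of which 69 had a named probe and 47 were detected on at least 1 array, each by its brightest probe. At 6 h against 0 h, 5 of the 44 measured on both arrays were past 1.5-fold upward and 6 downward, where 9.46% and 9.79% of all genes were, and their median was 0.07 against -0.02 for all genes. At 2 h the counts were 7 and 2 of 45 (7.86% and 7.98% of all genes), and at 4 h 2 and 2 of 45 (4.25% and 4.57%). For 6 h against 2 h they were 0 and 2 of 44 (1.53% and 1.34%). The 7 that were higher at 2 h were HES7 (1.20), DTX3 (1.17), MIB2 (1.01), APH1A (0.87), FURIN (0.84), EP300 (0.64) and EGFL7 (0.63). The 2 that were lower were PSEN2 (-0.60) and DTX2 (-0.70), but the second probe of each read 0.10 and 0.91. Second probes of MIB2 and APH1A read 0.66 and 0.20. At 4 h, EP300 (0.61) and DTX3 (0.64) were higher and DLK2 (-0.70) and ID1 (-0.83) lower, with ID1 then near the detection limit. For 6 h against 2 h DLK2 (-0.97) and HES7 (-0.85) were lower. HES7, a repressor of the HES family, was highest at 2 h, with log2 differences from 0 h of 1.20, 0.37 and 0.35 after 2, 4 and 6 h, so it stood above 0 h at 6 h. None of these genes passed the trend test (0 at a limma adjusted p under 0.05).

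Among further ligands, DLK2, a membrane protein related to the Delta family, was the gene with the largest decrease of the wider pathway. Its log2 levels were 9.25, 8.89, 8.54 and 7.92 at 0, 2, 4 and 6 h. Each array was lower than the one before, and the level was 2.51 times lower at 6 h than at 0 h and 1.95 times lower than at 2 h (slope -0.22 per hour, SE 0.0407, limma adjusted p = 0.119). NOTCH4 and DLL4 were not detected. DLL3, a Delta-like protein found mostly inside the cell, read 0.53 and 0.68 above 0 h at 2 h on its 2 probes, 0.19 and 0.09 at 4 h and 0.30 and 0.32 at 6 h, with -0.23 and -0.37 for 6 h against 2 h.

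Receptor maturation gave differences in both directions. FURIN, the protease that cuts the receptor in the Golgi, was 1.73 times higher at 6 h, at log2 levels of 7.67, 8.51, 8.02 and 8.46. MFNG, a Fringe enzyme that extends sugars on the receptor, was 1.68 times lower, at 9.70, 9.19, 9.17 and 8.95. The related RFNG read above 0 h on all of its probes, and its brightest stood at 0.45, 0.49 and 0.52 at 2, 4 and 6 h. LFNG was not detected. In the cleavage machinery, the gamma-secretase subunits APH1A and PSENEN went apart, with APH1A 1.74 times higher and PSENEN 1.62 times lower at 6 h, although a second APH1A probe read 0.04. The log2 differences at 6 h were -0.40 for the subunit NCSTN, -0.36 for the protease ADAM10 and 0.05 for ADAM17 on its brightest probe. For 6 h against 2 h, FURIN, MFNG, APH1A and PSENEN read -0.05, -0.24, -0.07 and -0.13. RFNG, NCSTN, ADAM10 and ADAM17 read 0.07, 0.02, -0.20 and 0.14 on their brightest probes in that comparison.

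RBPJ, the DNA-binding partner of the receptor fragment, read 8.92, 9.10, 8.84 and 8.82 at 0, 2, 4 and 6 h on the log2 scale. It differed from 0 h by 0.18, -0.08 and -0.10, all under 1.5-fold, with -0.27 for 6 h against 2 h. EP300, a histone acetyltransferase and co-activator, was 1.64 times higher at 6 h, with 0.07 for 6 h against 2 h. CTBP1, a co-repressor, was 1.63 times lower on its brightest probe, but its other probes read 0.81 and 0.58, and for 6 h against 2 h the 3 read -0.17, 0.18 and -0.22. Among regulators of receptor and ligand turnover, the Deltex-type ubiquitin ligase gene DTX3 was 2.58 times higher at 6 h, at log2 levels of 7.73, 8.89, 8.37 and 9.09. MIB2, a ubiquitin ligase that acts on ligands, was 1.86 times higher, and its second probe read 0.56. DTX2 was 1.55 times lower on its brightest probe, while a second read 0.82. For 6 h against 2 h these 3 genes read 0.20, -0.11 and 0.07.

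Further genes known as Notch targets in some cell types had a median log2 difference of -0.30 at 6 h over 7 genes, against -0.02 for all genes. For 6 h against 2 h their median was -0.40, against 0 for all genes. MYC, a growth-promoting transcription factor with many other regulators, read 11.79, 11.66, 11.56 and 11.13, which is 1.58 times lower at 6 h, and its second probe read -0.82. For 6 h against 2 h the MYC probes gave -0.53 and -0.38. ID1, an inhibitor of helix-loop-helix factors, was detected at 0, 2 and 4 h but not at 6 h. At 6 h it was at least 1.83-fold lower than at 0 h and at least 1.54-fold lower than at 2 h. Its log2 level of 6.29 at 4 h was close to the lowest detected level, which was 6.26 at 0 h and 6.25 at 6 h. NRARP, HES5 and HEY2 were not detected.

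**Figure D4:**
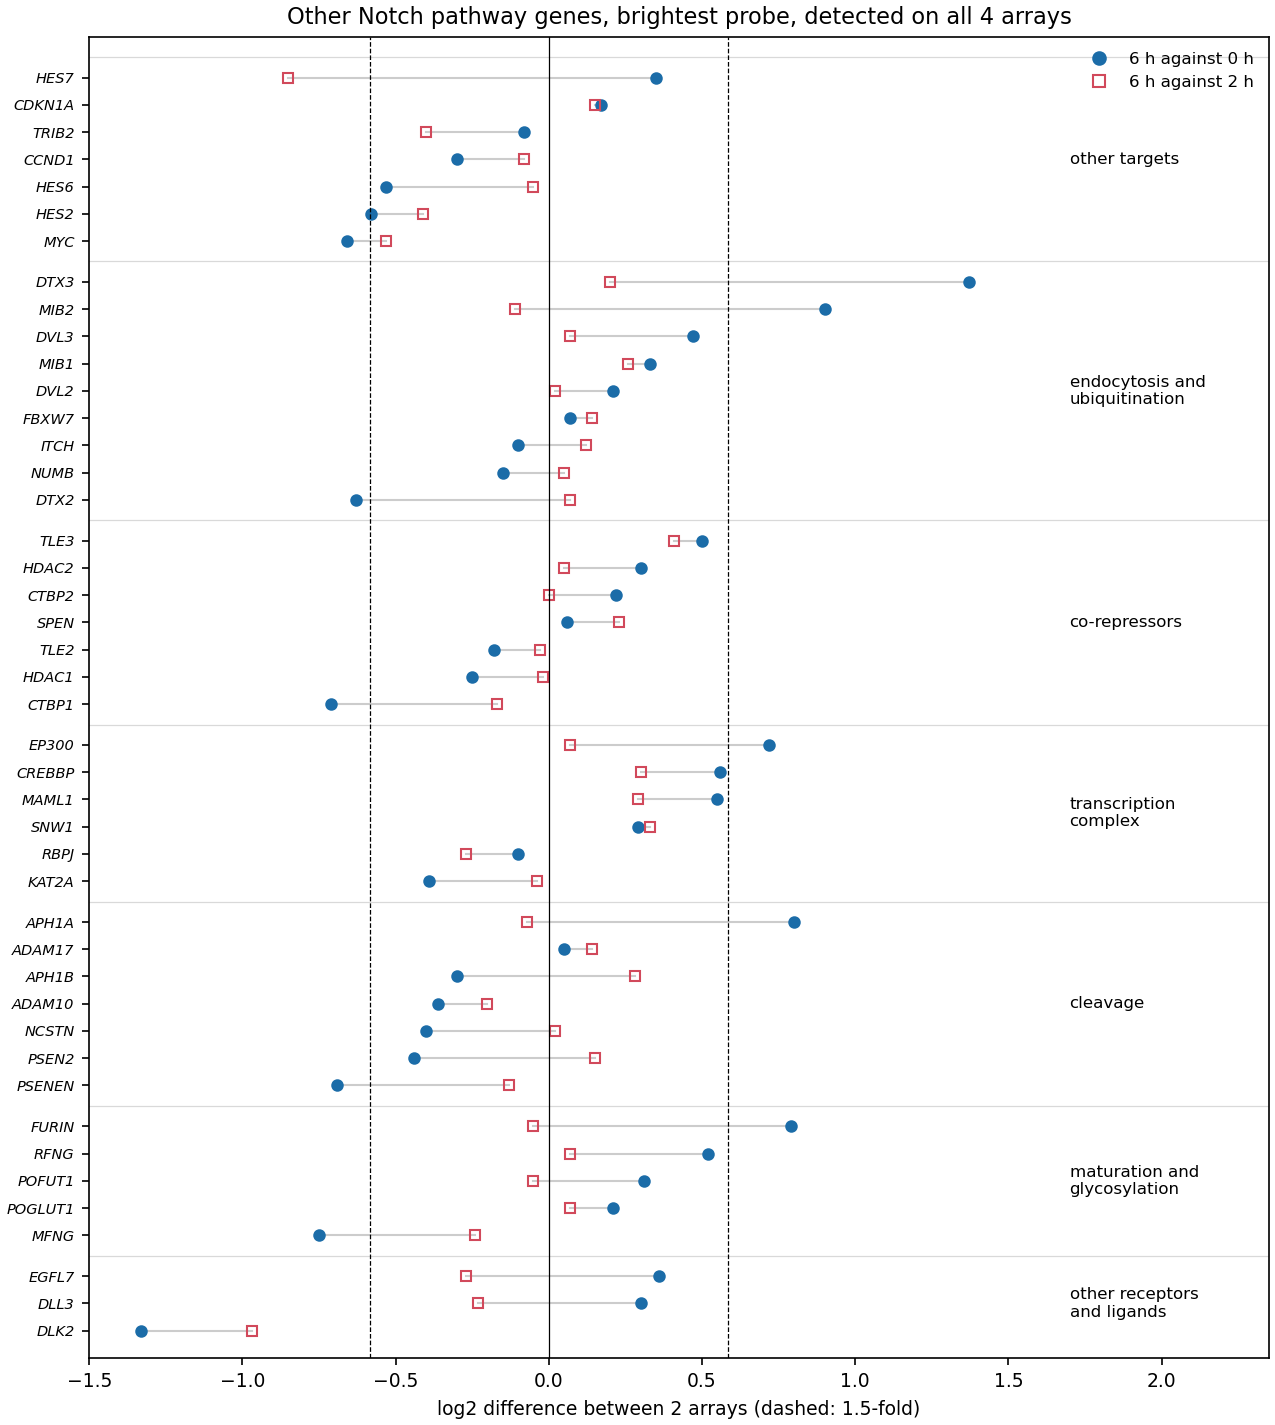
log2 difference between 2 arrays (horizontal axis) for 44 other Notch pathway genes detected on all 4 arrays, by brightest probe and grouped by role. Filled circles are 6 h against 0 h and open squares 6 h against 2 h, and dashed lines mark 1.5-fold; DLK2 is at -1.33 and -0.97, and DTX3 at 1.37 and 0.20.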

How the data were processed

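BeadStudio, named in the submitters' processing notes without version or settings, gave the deposited non-normalized intensity of each probe. The deposited detection p-value of a probe compares it with negative controls on its array, per the file headers. The authors' processed intensity values lie within 1.48% of a linear quantile normalization of the non-normalized ones. Non-normalized intensities were corrected in limma 3.58.1 (R 4.3.3) with normexp, control levels being inferred from detection p, and an offset of 16, then put on the log2 scale and quantile normalized. The platform table, updated through RefSeq, gave 1 symbol to 27578 probes and several to 13, and 21212 were unnamed here. Folds of 1.5 and 2 carry no test. The slope over hours was tested with limma (moderated variance with an intensity trend, 2-sided, Benjamini-Hochberg over 14793 probes, 2 residual degrees of freedom). The procedure was run on simulated data with independent noise and straight slopes steeper than those of the members. That run does not show its power for slopes as small as theirs or for steps.

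All members were named, with RBPJ, up to 3 wider pathway genes per list and direction past 1.5-fold at 6 h against 0 h, and the 3 probes nearest to NOTCH1. Other genes and second probes were named after their values were seen. Members and lists were chosen with earlier results of these data known. Nothing in the labels says whether the 4 arrays came from separate cultures. Alternatives were median scaling, no background correction, the authors' processed values, an offset of 50, a detection p under 0.05, a fold of 2, no intensity trend and leaving out 1 array.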

Additional observations from a re-analysis of the deposited data

How the results depend on the processing

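The 10 detected probes were recomputed under 4 other ways of making the values, which gave 160 differences, and 0 of those past 1.5-fold changed sign. The differences of the wider pathway genes were not recomputed in these ways. The count of probes at least 1.5-fold lower at 4 h was 3 as reported and 1 under scaling to one median, without background correction, in the authors' processed values and with an offset of 50, because NOTCH2 (-0.48 to -0.54) and NOTCH3 (-0.44 to -0.58) came to lie inside 1.5-fold. Over all probes the lower calls at 4 h were 635 as reported and 278, 422, 423 and 456 in these settings. HEYL at 6 h read -0.53 under scaling to one median. That scaling moved the median of all probes to 0.06, 0.15 and 0.09 at 2, 4 and 6 h, and calls over all probes were 66.2%, 82.8% and 70.0% higher, in place of 45.6% to 51.0%. NOTCH1 ranged from -1.02 to -0.85 at 4 h, under 2-fold in all 4 alternatives, and from -1.06 to -0.95 at 6 h, under 2-fold in part of them. At 4 h, differences near 0 had no settled sign: the second NOTCH2 probe ranged from -0.19 to 0.00 and the HEY1 probes from -0.03 to 0.12 and from -0.11 to 0.05. The 2 JAG2 probes kept opposite signs at 6 h, at -0.64 to -0.62 and 0.64 to 0.77. At a fold of 2, 0 probes were higher and 0 lower at 2 h, 1 was lower at 4 h, and 0 were higher and 1 lower at 6 h. A detection p under 0.05 kept each count within 1.5 times. In the trend test, leaving out 1 array gave from 0 to 7 member probes, the 7 without the 2 h array, with 1 residual degree of freedom. In that fit 1715 probes rose and 1605 fell out of 14701, and the 7 include both JAG2 probes, which went in opposite directions. Every other setting gave 0. No paired analysis was possible because each time has 1 array. Intensities near background limit the values of both NOTCH2 probes and the second HEY1 probe most, and 6 probes were not detected on any array.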
